A study of Mus musculus with 24 samples.

Results

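The genes described here are 32 genes of homologous recombination and the Fanconi pathway, taken by symbol from the 21671 genes of the RNA-Seq files for their known function. They fall into 6 roles: 4 mediators around BRCA1 and BRCA2, 5 genes of DNA end resection, 7 of strand exchange, 6 that dissolve or cut joined DNA molecules, 7 of the Fanconi core complex (with its translocase FANCM) and 3 that act with or after the FANCD2-FANCI pair. All 32 were present in the files and passed the expression filter in both cell types, that is, an RPKM (reads for each kilobase of a gene, relative to the reads on exons) above 1 in at least 1 Trp53+/+ library.

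Homologous recombination repairs broken DNA by copying the sister chromatid. The ends are first trimmed to single strands, starting with the MRE11-RAD50-NBN complex, BRCA2 then helps the single strand to invade the intact copy, and the joined molecules are finally separated by helicases or nucleases. The Fanconi pathway unhooks DNA crosslinks: its core complex ubiquitinates FANCD2 and FANCI, and repair is then handed to recombination. Many of these genes are transcribed mainly in cycling cells, through E2F and related promoter elements, and are therefore lower in resting lymphocytes than in dividing cells.

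The libraries came from spleens of C57/Bl6 mice of 8 weeks of age, either Trp53+/+ or Trp53-/-, that were mock-treated (control) or collected 4 h after whole-body IR at 7 Gy. B cells were enriched on B220 MicroBeads and the column flow-through was taken as non-B cells, so that the latter are a mixture defined by what did not bind. The Trp53-/- mice carry a germline knockout allele, in every cell of the body. Each of the 8 groups of cell type, genotype and treatment held 4 Trp53+/+ or 2 Trp53-/- libraries, 24 in all. The study's methods give the same numbers of mice in each condition, so that the libraries of a group were taken as separate mice; whether B and non-B libraries of 1 number share a mouse is not given in the sources used here. The comparisons ask whether these repair genes respond to IR, whether the response needs p53, and whether it differs between the cell types.

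Depth, estimated from the lowest RPKM values, lay between 4.67 and 10.98 M (mega) reads per library, and the least covered member value rested on about 15 reads. The labels held: Cdkn1a, the p21 inhibitor induced by p53, was at 82.3 to 97.8 RPKM in irradiated Trp53+/+ B cells and at 0.562 and 0.726 in irradiated Trp53-/- B cells, and 8 of 8 listed p53 targets rose in each Trp53+/+ cell type and none in Trp53-/- cells. Trp53 itself was still read in Trp53-/- controls, at 21.6 and 21.7 RPKM in B cells against 44.8 to 47.9 in Trp53+/+. The summed level of 8 B cell markers was 888 to 1098 RPKM in B libraries and 219 to 621 in non-B libraries, so the flow-through still held B cell RNA. For 8 T cell markers the sums were 39.1 to 78.1 in B and 299 to 621 in non-B libraries. Olfactory and other receptor genes that spleen cells are not known to use were above 0 for 5.29% to 9.19% of 1437 genes in control libraries but for 6.96% to 51.4% in irradiated Trp53+/+ libraries. In irradiated Trp53-/- libraries the share was 6.75% to 13.0%. The genotype comparison of the IR responses thus also compared libraries that differed in this share. The RNA is bulk, and fewer cells of a type cannot be told apart from less RNA per cell.

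In unstressed Trp53+/+ B cells the 32 genes spanned a wide range of levels per length. The highest were Rmi1, a partner of the BLM helicase, at 25.8 ± 1.39 RPKM (SD, n = 4), Mus81, the catalytic subunit of a structure-specific nuclease, at 25.8 ± 0.794, and Rad50, the scaffold of the MRE11 complex, at 24.7 ± 1.19, which did not differ beyond their spread. The lowest were Rad54b, a DNA translocase, at 0.954 ± 0.295, Fancd2 at 1.53 ± 0.259 and Exo1, a resection exonuclease, at 1.88 ± 0.494. Unstressed Trp53-/- cells had 0 of the 32 genes called against Trp53+/+ by limma in either cell type. A gene was called where the adjusted p was below 0.05 and the log2 fold change beyond 0.58 in either direction. Over all genes tested that rule called 0.0506% in B and 0.0428% in non-B cells. At an unadjusted p under 0.05 there was 1 member in B cells, Fancm, with a log2 difference of 0.24, and 0 in non-B cells, and limma without a trend also called 0 in both. Over all genes 589 of 13821 in B and 705 of 14018 in non-B cells were at that unadjusted p by limma.

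The promoters of 4 members are printed to show genes whose Trp53+/+ B cell libraries separated after IR: Fancm, Fanca and Bard1, which were called lower, and Rad52, all of whose irradiated libraries were above the controls. Each run holds the 250 bases before the annotated start, 5′ to 3′ on the strand of the gene, from the RefSeq table of GRCm38.p6, whose coordinates differ from those of the mm9 build of the data. The windows are chr12:65075353-65075602 (plus strand), chr8:123318577-123318826 (minus strand), chr1:71102973-71103222 (minus strand) and chr6:119902448-119902697 (plus strand). Capitals mark the letters of an E2F site (TTTCCCGC, TTTCGCGC, TTTGCCGC or TTTGGCGC), of a CHR element (TTTGAA) or of a CCAAT box, on either strand; the marked matches do not overlap in these 4 windows.
Fancm: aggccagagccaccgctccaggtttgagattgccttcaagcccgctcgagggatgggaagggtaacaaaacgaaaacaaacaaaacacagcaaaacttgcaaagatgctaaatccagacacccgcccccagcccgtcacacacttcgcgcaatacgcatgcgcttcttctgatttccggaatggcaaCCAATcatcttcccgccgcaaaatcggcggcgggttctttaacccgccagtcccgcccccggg
Fanca: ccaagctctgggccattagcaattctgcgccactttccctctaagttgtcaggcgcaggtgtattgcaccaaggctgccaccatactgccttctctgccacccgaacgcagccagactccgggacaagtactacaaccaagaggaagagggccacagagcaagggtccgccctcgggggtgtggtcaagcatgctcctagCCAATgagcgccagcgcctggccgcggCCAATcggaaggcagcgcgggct
Bard1: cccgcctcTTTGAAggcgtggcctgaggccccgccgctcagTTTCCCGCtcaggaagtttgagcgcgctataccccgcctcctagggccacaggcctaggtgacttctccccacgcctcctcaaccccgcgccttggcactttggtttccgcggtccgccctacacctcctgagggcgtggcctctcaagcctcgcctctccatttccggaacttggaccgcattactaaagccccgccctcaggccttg
Rad52: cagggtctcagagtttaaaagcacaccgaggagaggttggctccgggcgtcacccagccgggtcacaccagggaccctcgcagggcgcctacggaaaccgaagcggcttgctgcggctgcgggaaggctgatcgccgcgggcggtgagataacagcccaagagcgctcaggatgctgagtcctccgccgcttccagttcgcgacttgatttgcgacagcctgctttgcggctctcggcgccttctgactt

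Bard1 held a CHR match at -242 and an E2F match at -209 from the start, Fanca held CCAAT boxes at -50 and -23, and Fancm a CCAAT box at -63, while none of these letters stood in the Rad52 window. Whether the letters go with the response was not tested. Brca1 and Rmi1, lower at an adjusted p under 0.05, held CCAAT boxes, and Gen1 and Fancl, also lower, held none of the letters. Fancc, whose irradiated libraries were all above the controls, held a CCAAT box at -242. Of the 32 members, 25 were in the promoter table, with 28 windows of 250 bases before to 50 after a start. E2F letters were in the windows of 5 members, Bard1, Brca2, Fancg, Rad51c and Rmi1, and in 2.26% of all 32851 windows. The CHR letters were in 2, Bard1 and Eme1, against 17.9% of all windows, and CCAAT boxes were in 17 of the 28 windows against 37.4%. The p53 response element without spacer was not found in any of the 28 windows with up to 2 mismatches, against 0.798% of all windows. These are matches of letters, not binding sites, and windows of this length leave out most of the region around a gene.

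After IR, B cells of Trp53+/+ mice had less RNA of 3 of the 32 genes, Fancm, Fanca and Bard1, and none was called higher. Over all 13821 genes tested in B cells, 12.2% were called lower and 12.5% higher, beside 9.38% of the members called in all. The median log2 fold change of the 32 genes was -0.15, against 0.01 over all genes, and 22 of them were below 0. The split depended on the scaling and on a covariate. With median-ratio scaling of the libraries Bard1 was not called and Rad50 and Rad52 were called higher, and with the share of receptor genes as a covariate Bard1 was not called and Fancf and Rad52 were called higher, 2 up and 2 down each time. Over all genes 24.7% were called with the scaling and 25.4% with the covariate.

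Fancm, on chromosome 12 from 66176593 to 66233045 (plus strand, GENCODE annotation of NCBIM37, the assembly of mm9), encodes the translocase that anchors the Fanconi core complex to DNA. Its RPKM was 11.4, 11.2, 9.69 and 11.6 in the Trp53+/+ B cell controls and 5.36, 5.22, 5.68 and 5.66 after IR. The irradiated libraries lay close together and far below every control. The log2 fold change was -0.94 (SE 0.08, adjusted p = 1.9e-06 by limma), a 1.92-fold decrease on the RPKM + 0.5 scale.

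Fanca, on chromosome 8 from 125792200 to 125842476 (minus strand), encodes a core complex subunit. Its controls were at 7.06, 6.82, 6.44 and 6.73 RPKM and its irradiated libraries at 3.27, 2.58, 3.94 and 3.98, again without overlap (log2 fold change -0.90, SE 0.13, adjusted p = 8.6e-05 by limma). Bard1, the obligate partner of BRCA1 in a ubiquitin ligase, on chromosome 1 from 71074072 to 71149720 (minus strand), fell from 5.67, 5.03, 4.88 and 4.78 to 3.38, 2.87, 3.01 and 3.60 RPKM. Its log2 fold change of -0.59 (SE 0.12, adjusted p = 0.0012 by limma) was just past the fold threshold, and the call was lost without Trp53+/+ control library 1 or without irradiated library 2 or 3. The plot of RPKM in each library shows these genes beside 6 others.

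**Figure D1:**
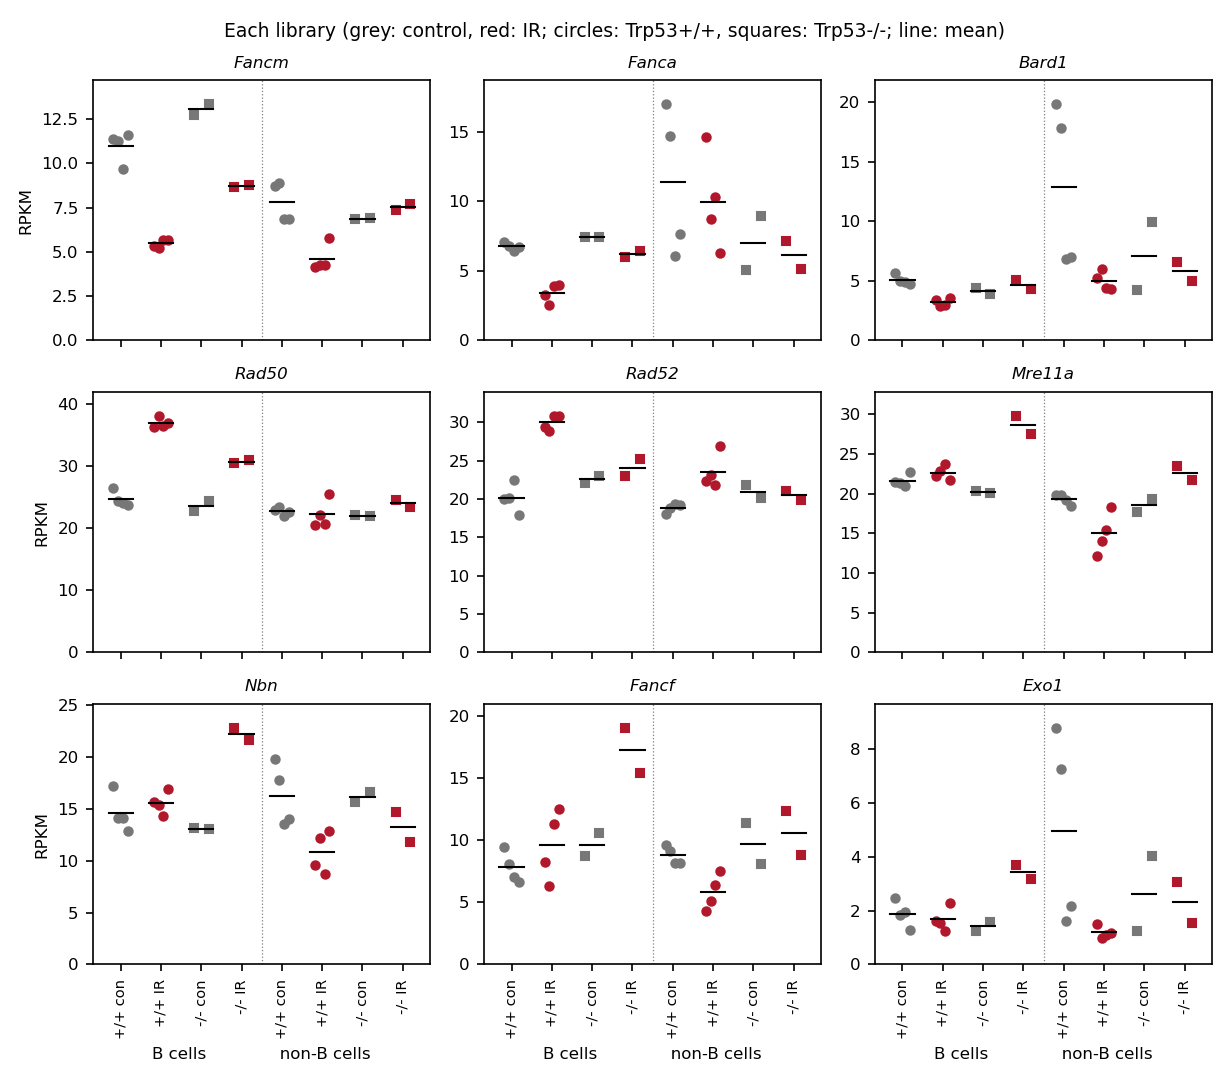
RPKM (vertical axis, from 0) of 9 genes in each of the 24 libraries, with the groups of cell type, genotype (+/+ or -/-) and treatment (con, control; IR) on the horizontal axis and a line at each group mean. In B cells, Fancm lay at 5.22 to 5.68 in irradiated Trp53+/+ libraries and at 9.69 to 11.6 in their controls, while Nbn, Mre11a, Fancf and Exo1 were higher after IR in both Trp53-/- libraries than in both of their controls.

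Rad50 and Rad52 stood apart on the other side, below the fold threshold. Rad50, on chromosome 11 from 53463021 to 53520821 (minus strand), was at 26.4, 24.4, 24.1 and 23.8 RPKM in the controls and at 36.3, 38.2, 36.6 and 36.9 after IR. Every irradiated library was above every control, with a log2 fold change of 0.57 (SE 0.05, adjusted p = 2.3e-06 by limma). Rad52, a strand-annealing protein encoded on chromosome 6 from 119852716 to 119872846 (plus strand), was at 17.9 to 22.5 RPKM in the controls and then at 29.4, 28.9, 30.9 and 30.9 (log2 fold change 0.57, SE 0.07, adjusted p = 2.7e-05 by limma). Both lay just under the fold threshold of 0.58. Rad50 passed it without control library 1 or without irradiated library 1 or 3, and Rad52 without control library 3 or irradiated library 2.

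A further 4 members passed the adjusted p at smaller changes. Their log2 fold changes were -0.44 for Rmi1, -0.44 for Gen1 (a Holliday junction nuclease), -0.42 for Brca1 and -0.26 for Fancl (the ubiquitin ligase of the core complex). With no fold threshold, 9 of the 32 genes were thus called. At an unadjusted p under 0.05 by limma there were 12 of the 32 members, beside 7919 of the 13821 genes tested. The irradiated libraries were all below the controls for 9 members, Bard1, Brca1, Eme1, Fanca, Fancm, Gen1, Rad51c, Rbbp8 and Rmi1, where 23.3% of all genes were, and all above them for 3, Fancc, Rad50 and Rad52, where 22.9% of all genes were.

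By role, the losses in Trp53+/+ B cells fell on 2 of 7 Fanconi core genes and 1 of 4 mediators, and 0 of 5 resection, 0 of 7 strand exchange and 0 of 6 resolution genes were called. Resection genes had a median log2 fold change of 0.07 and mediators of -0.29. The 3 genes of the FANCD2-FANCI group were all below 0 and not called, with a median of -0.20. Cycling-cell transcripts moved in the same libraries: 10 of 12 proliferation genes fell (median log2 fold change -0.82), and their summed level was 80.2 to 184 RPKM in controls and 67.6 to 87.6 after IR. Of 10 erythroid genes 7 fell, with sums of 63.6 to 135 and then 47.2 to 54.4. Their part in the members' values was not tested.

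**Figure D2:**
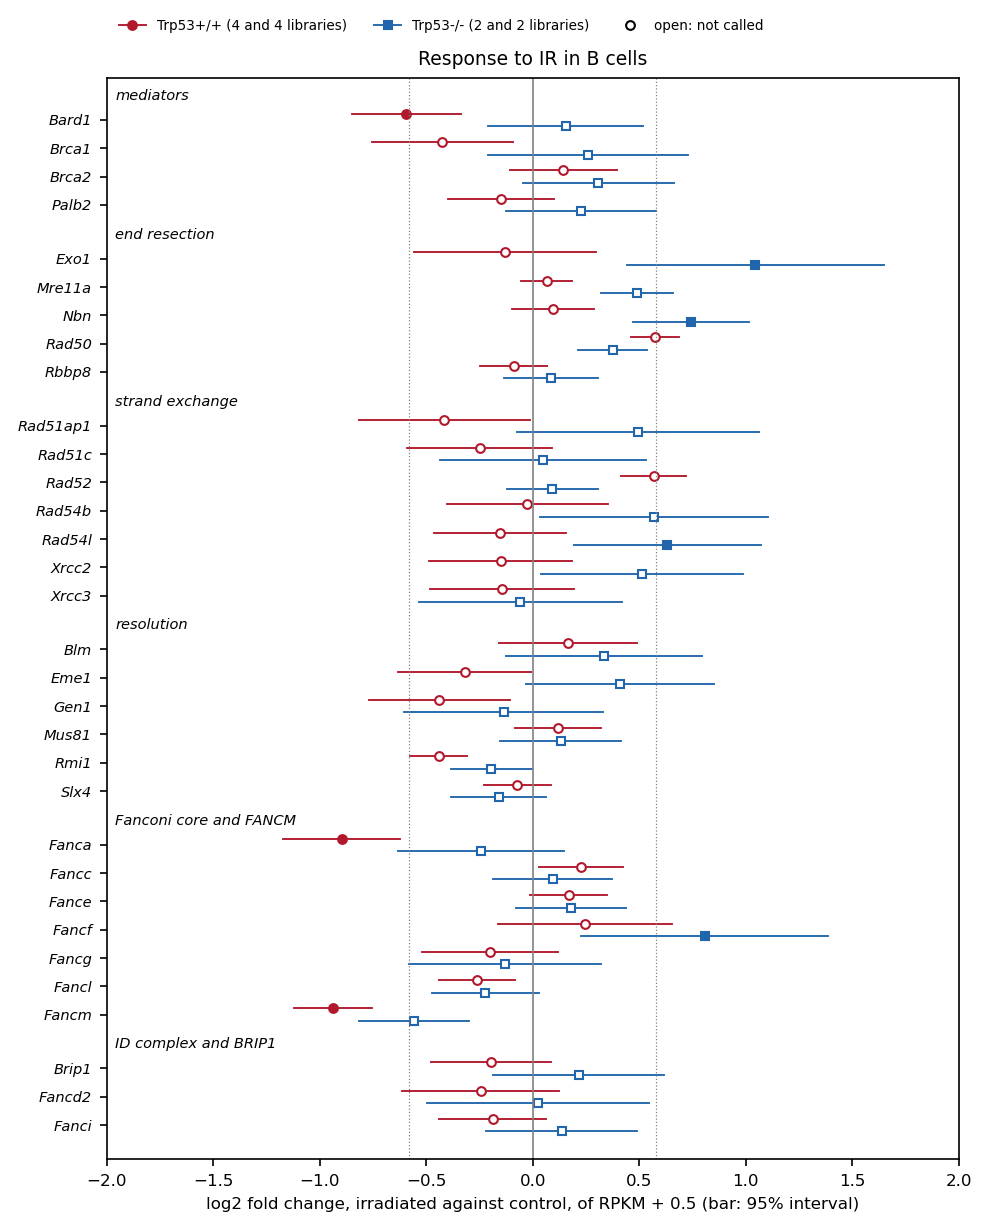
Log2 fold change after IR (horizontal axis, RPKM + 0.5, bars for the 95% interval) of the 32 genes, grouped by role on the vertical axis, in Trp53+/+ (red circles) and Trp53-/- (blue squares) B cells, filled where called, with dotted lines at the fold threshold. Filled red points (Fancm, Fanca, Bard1) lie to the left and filled blue points (Exo1, Fancf, Nbn, Rad54l) to the right.

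In Trp53-/- B cells, IR was followed by higher RNA of 4 members, Exo1, Fancf, Nbn and Rad54l, and none was called lower. Over all genes 13.1% were called higher and 11.2% lower, so that the share of members called higher (12.5%) was near the background. The median log2 fold change was 0.17, against 0.02 over all genes, and 24 of the 32 genes were above 0. With median-ratio scaling the balance over all genes turned, with 1537 higher and 1807 lower, and 3 members were called higher and 1, Fancm, lower, with Rad54l no longer called.

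Nbn, the subunit of the MRE11 complex that recruits the ATM kinase, was at 13.1 and 13.0 RPKM in the Trp53-/- controls and at 22.8 and 21.6 after IR. The pairs were far apart (log2 fold change 0.74, SE 0.12, adjusted p = 0.00052 by limma), and Nbn stayed called without any of the 4 Trp53-/- libraries in turn. Exo1 went from 1.25 and 1.58 to 3.70 and 3.19 RPKM (log2 fold change 1.05, SE 0.28, adjusted p = 0.0094 by limma). Fancf, a core complex adaptor, went from 8.72 and 10.5 to 19.1 and 15.4 (log2 fold change 0.81, SE 0.27, adjusted p = 0.029 by limma), and Rad54l, a motor protein of strand exchange, from 2.30 and 2.86 to 4.23 and 4.28 (log2 fold change 0.63, SE 0.20, adjusted p = 0.025 by limma). Without Trp53-/- control library 1 the members called were 2, Nbn and Fancm, and without irradiated library 1 there was 1, Nbn.

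Below the fold threshold, Mre11a, the nuclease of the same complex as Nbn, was at 20.4 and 20.1 RPKM in controls and 29.8 and 27.5 after IR (log2 fold change 0.49, adjusted p = 0.00035 by limma). Rad50 was at 22.8 and 24.5, then at 30.5 and 31.1 (log2 fold change 0.38, adjusted p = 0.0016 by limma). All 3 genes of the MRE11 complex were thus above 0 at an adjusted p under 0.05, and all 5 resection genes had positive fold changes, with a median of 0.49. Positive fold changes were found for 24 of the 32 members in all. At an unadjusted p under 0.05 by limma there were 10 of the 32 members, beside 6663 of the 13821 genes tested. Fancm went the other way, from 12.8 and 13.4 to 8.66 and 8.80 RPKM (log2 fold change -0.56, adjusted p = 0.0027 by limma). In the same libraries 6 of 12 replication genes rose, with a median log2 fold change of 0.61 and sums of 263 and 270 RPKM in controls and 449 and 381 after IR. None of the 12 proliferation genes was called. The part of either list in the members' values was not tested.

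The difference between the genotypes was itself past an adjusted p of 0.05 for 6 members in B cells. Exo1, Rad54l, Bard1, Nbn and Mre11a responded lower in Trp53+/+ than in Trp53-/- cells and Rad52 higher. All genes had 10.6% of such differences lower and 8.14% higher, beside 5 and 1 of the 32 members. In either direction it was 18.8% of the members and 18.8% of all genes. With median-ratio scaling of the libraries, 1361 genes were higher and 943 lower instead of 1125 and 1469, and the members split into 2 higher (Rad50 joining Rad52) and 4 lower.

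The differences of the log2 fold changes were -1.18 (SE 0.34, adjusted p = 0.031) for Exo1, -0.78 (SE 0.25, adjusted p = 0.045) for Rad54l and -0.75 (SE 0.20, adjusted p = 0.025) for Bard1 by limma. For Nbn the difference was -0.65 (SE 0.15, adjusted p = 0.012), for Mre11a -0.43 (SE 0.10, adjusted p = 0.0095) and for Rad52 0.48 (SE 0.12, adjusted p = 0.018) by limma. Rad52 was at 22.1 and 23.0 RPKM in Trp53-/- controls and at 23.0 and 25.2 after IR, close together, unlike the separated Trp53+/+ groups. Fanca and Fancm, the most reduced genes in Trp53+/+ cells, had differences of -0.66 (95% interval -1.13 to -0.18, adjusted p = 0.056 by limma) and -0.38 (95% interval -0.70 to -0.07, adjusted p = 0.089 by limma), which missed the threshold. The 6 calls rested on few libraries: 0 remained without Trp53-/- control library 2, 0 without Trp53-/- irradiated library 1 and 1 (Mre11a) without Trp53-/- control library 1. With Trp53+/+ libraries 1 and 2 as the only wild-type ones 10 members were called, and with libraries 3 and 4 alone 0. Exo1 and Rad54l lost the call without an expression filter, with the library number as a block and with the receptor share as a covariate. The other 4 kept it each time. Over all genes 16.6% were called with the block and 18.2% with the covariate.

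Among non-B cells, the Trp53+/+ control libraries stood apart from each other before any comparison. Libraries 1 and 2 were both above libraries 3 and 4 for 24 of the 32 members, 75.0%, against 33.7% of all genes tested, with a median ratio of 1.52, and the ratio was over 2 for 14 members. Rad51ap1, a cofactor of strand exchange, was at 16.6 and 15.0 RPKM in libraries 1 and 2 and at 3.86 and 3.85 in libraries 3 and 4. Fancd2 was at 7.71 and 6.57 against 1.33 and 1.79, and Brca1 at 18.6 and 18.6 against 4.59 and 5.33. By contrast Rad50 was at 22.9 and 23.4 against 22.0 and 22.6, and Rad52 at 18.1 and 18.9 against 19.3 and 19.2.

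All 12 proliferation genes and all 10 erythroid genes divided the same control libraries in the same way. The proliferation sums were 467 and 438 RPKM in libraries 1 and 2 and 128 and 150 in libraries 3 and 4, and the erythroid sums 494 and 483 against 146 and 185. Klf1, the erythroid master regulator, was at 56.0 and 52.8 against 8.24 and 19.2. Among the Trp53-/- controls library 2 was above library 1 for 24 of the 32 members, against 48.2% of all genes tested, beside proliferation sums of 283 and 116. The part of these lists in the members' values was not tested. The main results that rest on the Trp53+/+ controls are therefore given with and without libraries 1 and 2. For unstressed Trp53-/- against Trp53+/+ non-B cells 0 members were called either way, and their median log2 difference was -0.18 with the pair and 0.12 without it.

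**Figure D3:**
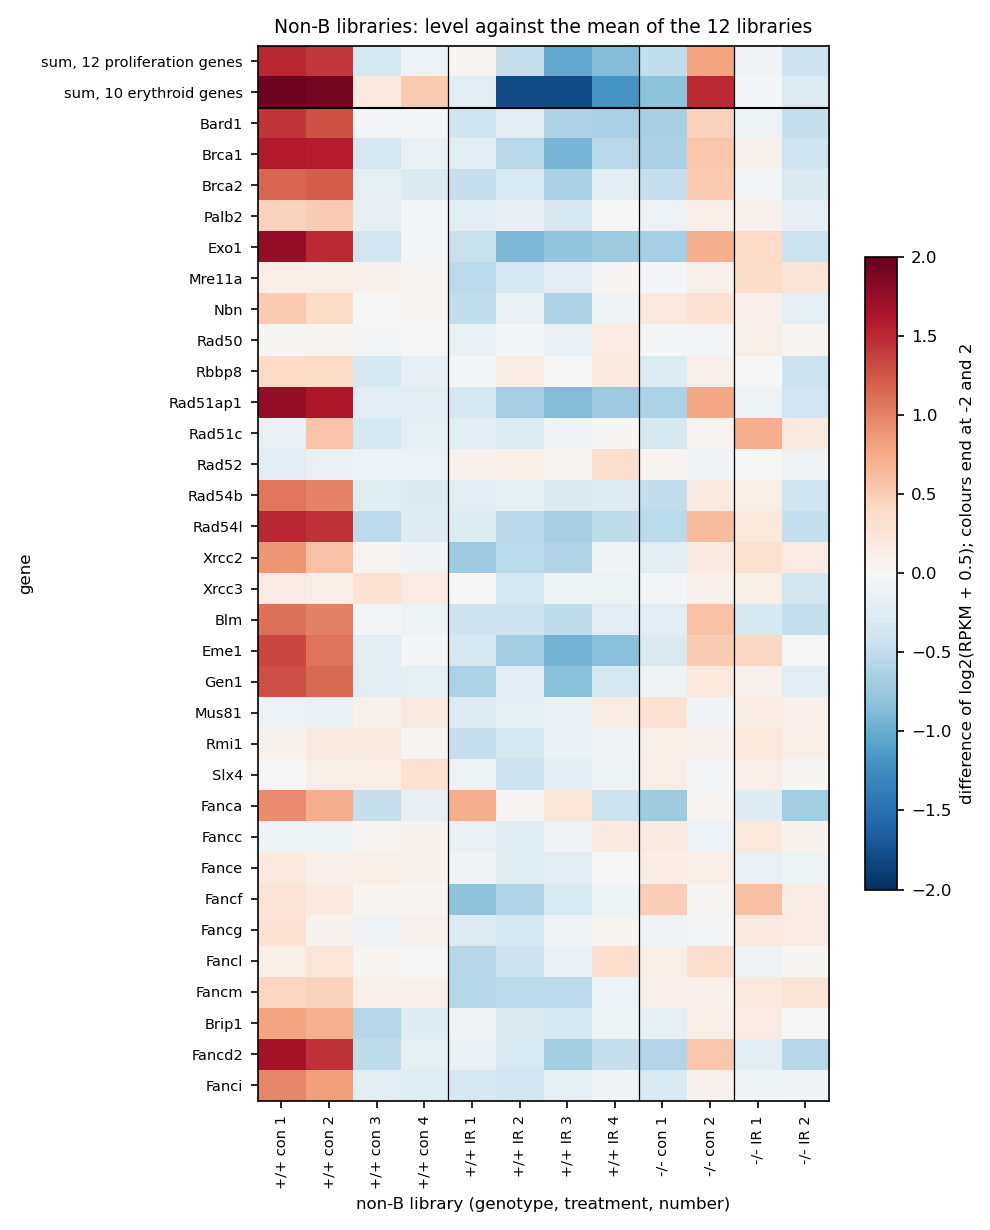
Each non-B library (columns) against the mean of the 12 non-B libraries, as a difference of log2(RPKM + 0.5) in colour, for the summed proliferation and erythroid genes (top) and the 32 members by role. Trp53+/+ control libraries 1 and 2 are red for the sums and for most members, such as Brca1, Exo1, Rad51ap1 and Fancd2, whereas Rad50, Rad52 and Mus81 are near white throughout.

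With all libraries, IR was followed in Trp53+/+ non-B cells by lower RNA of 5 members, Eme1, Bard1, Blm, Xrcc2 and Fancm, and by higher RNA of none. Over the 14018 genes tested 4.11% were called lower and 5.74% higher. The median log2 fold change of the members was -0.47, against -0.03 over all genes, and 30 of the 32 genes were below 0. Without control libraries 1 and 2 no member was called and the median was -0.23. With the library number as a block 9 members were called, adding Brca1, Exo1, Gen1 and Rad51ap1, and 0 were called with the share of receptor genes as a covariate. The members' median with that covariate was -0.52. Over all genes 576 were called lower in the main fit, 444 without the 2 control libraries, 680 with the block and 185 with the covariate.

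Fancm was the only member called in each of the 12 fits that left out a single library. It was at 8.73, 8.90, 6.84 and 6.88 RPKM in the controls and at 4.14, 4.25, 4.27 and 5.81 after IR. No irradiated library reached the lowest control, though library 4 was well above the other 3 (log2 fold change -0.71, SE 0.14, adjusted p = 0.0066 by limma). Without both control libraries the value was -0.54 (SE 0.16, adjusted p = 0.053 by limma).

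Eme1, the regulatory partner of MUS81, was at 16.4, 13.7, 5.25 and 6.02 RPKM in controls and at 4.84, 3.66, 2.98 and 3.23 after IR (log2 fold change -1.24, SE 0.34, adjusted p = 0.028 by limma). Control libraries 1 and 2 were far above the others, and without them the value was -0.57 (SE 0.25, adjusted p = 0.16 by limma). Bard1 went from 19.9, 17.8, 6.85 and 6.99 to 5.28, 5.99, 4.43 and 4.34 (log2 fold change -1.13, adjusted p = 0.048 by limma), and without the pair the value was -0.44. Blm, the helicase that dissolves joined molecules, had a log2 fold change of -0.88 (adjusted p = 0.048 by limma) and -0.33 without the pair. For Xrcc2, which aids strand exchange, they were -0.84 (adjusted p = 0.025 by limma) and -0.47, and 1 irradiated library, at 5.90, was above the lowest control, at 5.88.

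Members that passed the adjusted p below the fold threshold were Fancf (-0.58), Nbn (-0.56), Mre11a (-0.37), Slx4, a nuclease scaffold (-0.36), Rmi1 (-0.35) and Rad52 (0.31) on the log2 scale. Without control libraries 1 and 2 the values were -0.48, -0.35, -0.33, -0.43, -0.34 and 0.28 in the same order, and the adjusted p was under 0.05 for Slx4 alone (0.036 by limma). With all libraries 19 of the 32 members were at an unadjusted p under 0.05 by limma, beside 4869 of the 14018 genes tested. Without control libraries 1 and 2 there were 8 such members. Rad52 was the only member with all irradiated libraries above all controls, at 22.3, 23.1, 21.8 and 26.9 against 18.1, 18.9, 19.3 and 19.2 RPKM, where 10% of all genes had that order. The reverse order held for 14 members and 12.1% of all genes. Those 14 included Mre11a, Nbn, Slx4, Rmi1, Fance and Xrcc3, whose controls were not split by a ratio over 2. Against control libraries 3 and 4 alone, 14 members were below both (22.5% of all genes) and 2, Rad52 and Rbbp8, above both (19.4% of all genes).

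By role, 1 of 4 mediators, 2 of 6 resolution genes, 1 of 7 strand exchange genes and 1 of 7 Fanconi core genes fell in Trp53+/+ non-B cells, and 0 of 5 resection genes did. The medians by role ran from -1.004 for mediators to -0.25 for Fanconi core genes. This order rested on control libraries 1 and 2: without them mediators had a median of -0.25 and Fanconi core genes of -0.21, and the medians ran from -0.33 for resolution and for resection genes to -0.02 for the FANCD2-FANCI group. With all libraries 7 of 10 erythroid genes fell, with a median of -2.71 and sums of 146 to 494 RPKM in controls and 36.6 to 111 after IR. Of the proliferation genes 3 of 12 fell (sums of 128 to 467 and 79.5 to 170) and of the replication genes 8 of 12. Without the pair 3 erythroid, 0 proliferation and 3 replication genes were called lower. Klf1 was at 0.092 to 2.59 RPKM in the irradiated libraries, and Car1 was listed at 0 in 1 of them.

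**Figure D4:**
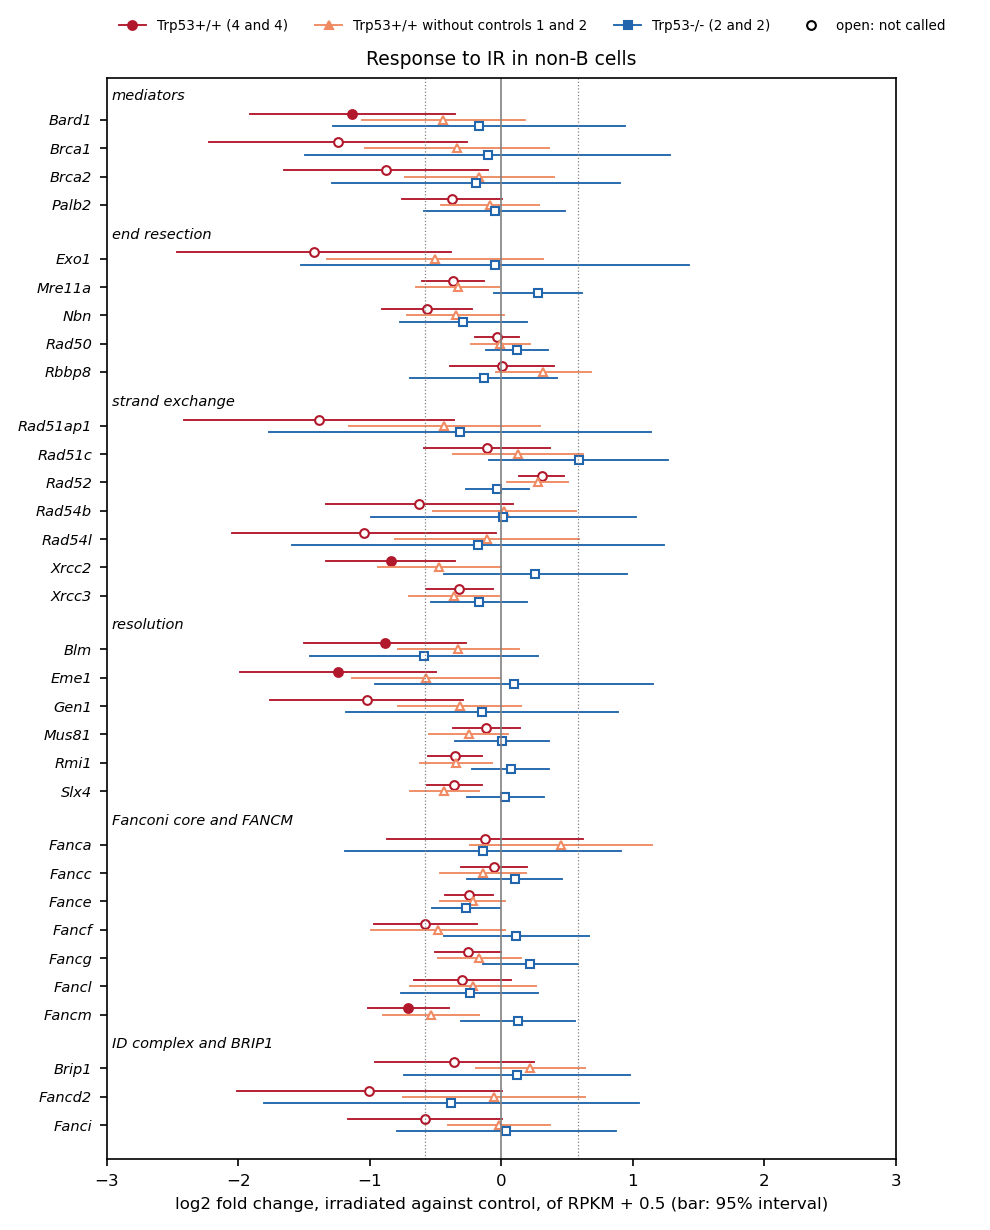
Log2 fold change after IR (horizontal axis, RPKM + 0.5, bars for the 95% interval) of the 32 genes by role in non-B cells, for Trp53+/+ libraries (red circles), Trp53+/+ without control libraries 1 and 2 (orange triangles) and Trp53-/- (blue squares), filled where called. The orange triangles are nearer to 0 than the red circles for most genes and none is filled.

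Trp53-/- non-B cells had 0 of the 32 genes called after IR, where 0.442% of all genes were. By limma 1 member, Fance, was at an unadjusted p under 0.05 (log2 fold change -0.27), as were 2222 of all 14018 genes, and limma without a trend also called 0 members. The median was -0.04 and 15 genes were above 0. The genotype difference was called for 0 members, against 7.35% of all genes. At an unadjusted p under 0.05 there were 9 of the 32 members, all but Rad52 lower in Trp53+/+ cells, beside 3552 of all 14018 genes. Limma without a trend called 1, Fancm, whose difference was -0.83 (95% interval -1.36 to -0.30, adjusted p = 0.062 by limma with a trend). These intervals are wide: for Eme1 the difference was -1.34 with a 95% interval of -2.63 to -0.05. Without control libraries 1 and 2 it was -0.67 for Eme1 (95% interval -1.53 to 0.19, adjusted p = 0.29 by limma) and -0.66 for Fancm (95% interval -1.22 to -0.10, adjusted p = 0.12 by limma), and 0 members were called, with 4 at an unadjusted p under 0.05. Over all genes 7.88% were called in that fit.

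Comparing the cell types in unstressed Trp53+/+ mice, 6 members were higher in non-B than in B cells and 0 lower, where 17.2% of all genes were higher and 7.38% lower. They were Bard1, Rad51ap1, Fancd2, Eme1, Blm and Rad54b, at log2 differences from 0.88 for Rad54b to 1.09 for Rad51ap1 and 1.1 for Bard1. For Bard1 the level was 5.09 ± 0.402 RPKM in B and 12.9 ± 6.94 in non-B cells (SD, n = 4), with most of the spread in the latter between the library pairs described above. Without non-B control libraries 1 and 2 none of the 6 was called, and 1 other member, Fancm, was lower in non-B cells (log2 difference -0.64, adjusted p = 0.0028 by limma). Over all genes that fit called 21%, 2033 higher and 1021 lower. With all libraries Fancm had a difference of -0.47 (adjusted p = 0.0067 by limma), below the fold threshold. Rmi1 was similar with and without the pair, at -0.43 and -0.44.

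The response to IR differed between the cell types of Trp53+/+ mice for 6 members. Blm, Fancf, Nbn, Rad50, Mre11a and Fance all responded lower in non-B cells, where 15.4% of all genes did, and 0 responded higher, where 12.6% of all genes did. The smallest adjusted p was that of Rad50, with a difference of -0.61 (SE 0.10, adjusted p = 0.00026 by limma). Its non-B levels were 20.6, 22.2, 20.7 and 25.5 RPKM after IR against 22.9, 23.4, 22.0 and 22.6 in controls, overlapping groups, unlike the separated ones in B cells. Without non-B control libraries 1 and 2 the difference was -0.58 (adjusted p = 0.0018 by limma).

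The other 2 genes of the MRE11 complex differed in the same direction. For Nbn the difference was -0.66 (SE 0.20, adjusted p = 0.020) and for Mre11a -0.43 (SE 0.13, adjusted p = 0.020) by limma, and without the 2 libraries they were -0.44 (adjusted p = 0.10) and -0.40 (adjusted p = 0.066). Mre11a was at 19.8, 19.8, 19.2 and 18.4 RPKM in non-B controls and at 12.2, 14.1, 15.4 and 18.3 after IR, a spread of irradiated libraries that was wider than that of the controls. In B cells it was at 21.5, 21.4, 20.9 and 22.7 and then at 22.3, 22.9, 23.7 and 21.8.

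Fancf (-0.82), Blm (-1.05) and Fance (-0.41), a core complex subunit that binds FANCD2, lost the call without the 2 libraries, with values of -0.73, -0.49 and -0.39. In their place Fanca (1.35, adjusted p = 0.0055 by limma) and Rbbp8 (0.41, adjusted p = 0.035 by limma), which encodes the resection factor CtIP, responded higher in non-B cells. That fit called 2 of the 32 members higher and 1 lower. Over all genes it called 26.8%, 1877 higher and 2022 lower. Fanca in irradiated Trp53+/+ non-B cells was spread from 6.25 to 14.6 RPKM, with controls at 17.0, 14.6, 6.09 and 7.65, so that the fall seen in B cells had no counterpart beyond the spread of these libraries (log2 fold change -0.12, 95% interval -0.87 to 0.62). Fancm, in contrast, was lower after IR in Trp53+/+ cells of both types, and its responses differed by 0.23 (SE 0.18, adjusted p = 0.35 by limma), an interval of -0.14 to 0.61.

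Of 70 other genes of the same pathways, listed by function, 69 were found in the files. In Trp53+/+ B cells 10 of the 67 tested rose and 2 fell, or 17.9% called, where 24.7% of all genes were. The largest increases were in Mnd1, which helps strand exchange (log2 fold change 1.32), and Rad51d, which acts with Xrcc2 (1.15). Mnd1 was low, at 0.122 to 1.56 RPKM in controls and 2.38 to 5.01 after IR. In Trp53-/- B cells Mnd1 was at 1.87 and 1.04 RPKM in controls and at 4.41 and 3.56 after IR. Rad51d was at 12.7 to 14.3 RPKM in Trp53+/+ controls and 28.2 to 34.5 after IR. Rpa3, a subunit of the single-strand binding complex (-0.78), and Fancb, a core complex subunit (-0.58), fell.

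In Trp53-/- B cells 12 of the 67 rose and 0 fell, or 17.9% called, where 24.3% of all genes were. The rises were led by Fignl1, an ATPase of the recombination pathway (1.29), Psmc3ip, the partner of Mnd1 (1.14), and Hells, a chromatin helicase (1.01). Rad51d had a value of -0.03. The genotype difference in B cells was called for 23 of the 67 (34.3%, against 18.8% of all genes), with 18 lower and 5 higher in Trp53+/+ cells. Limma without a trend called 12 lower and 5 higher. The difference of Rad51d was 1.18 (SE 0.13, adjusted p = 7.2e-05 by limma). In Trp53+/+ non-B cells 2 of 68 rose, Rad51d (0.81) and Fan1, a crosslink nuclease (0.72), and 6 fell, led by Hells (-0.99), Ube2t, the ubiquitin-conjugating enzyme of the core complex (-0.76), and Fancb (-0.70). The 8 called were 11.8% of the 68, where 9.85% of all genes were called. Without control libraries 1 and 2 Rad51d (0.75) and Fan1 (0.61) were still called, whereas Hells (-0.58), Ube2t (-0.31) and Fancb (-0.40) were not, and 3 of 67 rose and 2 fell. Over all genes 10.4% were called in that fit. In Trp53-/- non-B cells 0 of 68 were called by limma with a trend (0.442% of all genes were), 0 without it, and 4 were at an unadjusted p under 0.05. Over all genes 2222 of 14018 were at that unadjusted p.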

How the data were processed

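RNA-Seq was analysed in 24 libraries. The study's methods state that the authors masked read bases of a quality below 20, used TopHat on mm9, removed duplicated reads, assigned the rest to UCSC genes with featureCounts and deposited RPKM scaled to the reads on exons. The submitters' processing notes name TopHat2 2.0.8 and featureCounts 1.4.5. Removing duplicates compresses highly expressed genes, and the highest deposited RPKM was 307. Counts were not used here, so that no count model replaced the DESeq2 test of the authors. The library kit does not mark strand, and reads of overlapping antisense genes cannot be told apart.

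Tests were made with limma 3.58.1 in R 4.3.3 (mean-variance trend) on log2(RPKM + 0.5), with Benjamini-Hochberg adjustment over all genes tested, and fold changes on this scale understate those of low genes. Each cell type was fitted on its 12 libraries with 4 group means, and the cell types were compared in a fit of the 16 Trp53+/+ libraries. IR, genotype and cell type comparisons had both thresholds given above, and differences between responses the adjusted p alone. Tables and plots were made in Python 3.11.15 with numpy 2.4.6, pandas 2.3.3 and matplotlib 3.10.9.

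Members and lists were chosen with earlier results of these data known. All members are accounted for and called ones are named with values. Of the other pathway genes, the 3 with the largest called change in each direction after IR are named, and Rad51d was also followed in the other comparisons. One gene that this rule would name is not reported here. Same-numbered Trp53+/+ control and irradiated non-B libraries deviated together from their group means (correlations of 0.324, 0.202, 0.262 and 0.303 over 12782 genes). Of the 4 control libraries, 2 correlated best with the irradiated library of their own number. The number was therefore used as a block in an alternative fit, while the main fits paired no libraries. The labels do not say what a number marks. In B cells the correlations were 0.03, 0.028, 0.111 and 0.087, and 1 of 4 control libraries correlated best with its own number. Between same-numbered Trp53+/+ B and non-B libraries they were 0.389, 0.007, -0.055 and 0.242 in controls. After IR they were 0.169, -0.071, 0.113 and 0.289. The cell type fit treated B and non-B libraries as independent, although non-B cells were the flow-through of the B cell columns. Depth was estimated from the steps of low RPKM values, using gene lengths from the GENCODE annotation of NCBIM37. It was taken where the largest share of these values lay within 0.1 of a whole read, 57.3% to 71.6%. By chance 20% would at a depth fixed beforehand, and choosing the depth by this share raises it. These depths are approximate and entered no test. On simulated data of 12998 genes with 2-fold changes in B cells, the Trp53+/+ contrast recovered 195 of 200 changed genes with 17 others called, the Trp53-/- contrast 55 of 100 and the genotype difference 16 of 100. The simulation gave every gene the same spread beside counting noise and held no split among control libraries. Its recovery need not hold for the real libraries, above all the non-B ones.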

Additional observations from a re-analysis of the deposited data

Results flagged for a closer look

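In irradiated Trp53+/+ non-B cells the RPKM of Fancm in library 4, 5.814, lay apart from the other 3 by more than the critical value of Dixon's test. It was the single such case among 128 groups of 4 libraries, where chance gives about 1 in 20.

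The response to IR differed between genotypes in B cells, by the limma test of the difference (Trp53+/+ less Trp53-/-, log2 scale), for Exo1 (-1.1757), Rad54l (-0.7833), Bard1 (-0.7476), Nbn (-0.646), Mre11a (-0.4255) and Rad52 (0.4754). In Trp53+/+ mice it differed between the cell types (non-B less B) for Blm (-1.0489), Fancf (-0.8228), Nbn (-0.6604), Rad50 (-0.6086), Mre11a (-0.4334) and Fance (-0.4132). Nbn and Mre11a were in both sets, which share the Trp53+/+ B cell libraries.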

How the results depend on the processing

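Counts of called members were recomputed under other settings. In Trp53+/+ B cells, 3 with all libraries, they were 5 with libraries 3 and 4 alone and 9 with no fold threshold. In Trp53-/- B cells, 4 with all libraries, no fold threshold gave 7, and leaving out 1 library each gave 1 to 4. The genotype difference in B cells (6) was called for 10 members with Trp53+/+ libraries 1 and 2 alone, 0 with 3 and 4 alone, and 0 to 8 without single libraries. In Trp53+/+ non-B cells (5), the counts were 3 without an expression filter, 3 with median-ratio scaling, 3 by limma without a trend, 3 with Trp53+/+ libraries fitted alone, 11 with no fold threshold, 0 with the receptor share as a covariate, 19 with libraries 1 and 2 alone, 0 with 3 and 4 alone, 0 without control libraries 1 and 2, and 1 to 12 without single libraries, down to 1 without control library 1 or 2 or irradiated library 3 and up to 12 without control library 3. The non-B genotype difference (0) was called for 1 member with median-ratio scaling, 1 without a trend, 6 with libraries 1 and 2 alone, and 0 to 2 without single libraries. Between unstressed cell types (6), 10 were called with median-ratio scaling, 10 with no fold threshold, 14 with libraries 1 and 2 alone, 1 with 3 and 4 alone, 1 without non-B control libraries 1 and 2, and 2 to 13 without single libraries. The cell type difference of the response (6) gave 16, 2 and 3 for those last 3 sets of libraries, and 4 to 10 without single libraries. The replicate block gave 9 in Trp53+/+ non-B cells and moved no other count by more than 1.5 times. In Trp53-/- non-B cells the same-numbered libraries correlated at -0.313. With these numbers crossed, an alternative chosen after seeing the data, the block gave 9, 0, 0 and 0 members for the 4 non-B comparisons. The cause of these shifts was not tested. Calls over all genes moved too. In Trp53+/+ non-B cells they were 9.85% with all libraries, 3.63% with the receptor share as a covariate and 10.4% without control libraries 1 and 2. Between unstressed cell types they were 24.6% with all libraries and 21% without non-B control libraries 1 and 2. No share of all genes was computed without a fold threshold, with libraries 1 and 2 or 3 and 4 alone, or without single libraries. The counts of members there stand without a background. No called member changed direction under the settings run. Expression of Exo1, Fancd2 and Rad54b lay near 1 to 2 RPKM in B cells, where depth and the pseudocount limit the fold changes, and 2 Trp53-/- libraries per group limit the genotype tests.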
